A study of Mus musculus with 31 samples.

Results

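Macrophages lacking MyD88 that were given live E. coli were compared with unstimulated (mock) macrophages on 8 of the 31 spotted arrays of the study, which were chosen because their titles name this genotype, stimulus and reference. The 8 arrays came from 4 mice and gave 4 of the 16 mouse-level ratios of the study. Bone marrow was taken from MyD88-/- mice and from C57BL/6J wild-type mice aged 6 to 8 weeks, and was cultured for 8 days with L929-conditioned medium, a source of the macrophage growth factor CSF-1. Cells then received live E. coli at 1 bacterium per macrophage, re-purified LPS at 10 ng/mL or medium alone for 2 h. Each array paired RNA of the stimulated cells with RNA of mock cells of the same mouse, so the mock cells lacked MyD88 too, and each mouse had 1 array in each dye orientation. The wild-type E. coli arrays (8 arrays, 4 mice) and the MyD88-/- LPS arrays (7 arrays, 4 mice, with 1 array for mouse 4) serve below as comparisons. The labels do not say how the Myd88 gene was disrupted.

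MyD88 is the adaptor that carries signals of most Toll-like receptors and of the interleukin 1 receptor to NF-kB and the MAP kinases. Toll-like receptor 4, the receptor for the LPS of Gram-negative bacteria such as E. coli, also uses a separate adaptor, TRIF, which leads to NF-kB and to interferon regulatory factors, and through them to type I interferon and the genes it induces. Live bacteria carry other ligands beside LPS, among them lipoproteins seen by Toll-like receptor 2, whose signals pass through MyD88.

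Values were deposited on the log2 scale and are taken as stimulated cells over mock. The labels do not state that direction, and it is called likely because the arrays of both dye orientations run the same way and textbook LPS genes are above 0. The 8 arrays held between 6753 and 10391 values for 13872 probes, and their number limits the precision. The arrays of a mouse correlated with r of 0.256, 0.444, 0.385 and 0.325 across probes in mice 1 to 4, and mouse-level ratios of different mice with r of 0.39 to 0.48 over 7346 probes, which are not independent points. The probe for Myd88 (12197) gave log2 ratios of 0.74, 1.21, 1.51 and 1.70 in the 4 mice (mean 1.29 ± 0.21 SE, limma adjusted p = 0.0421), a call that ended without any 1 mouse (adjusted p between 0.0738 and 0.188) and with the spread pooled over all 16 ratios (adjusted p = 0.0887). Because both RNAs of an array came from MyD88-/- cells, and the position of the probe within Myd88 is not known here, the genotype could not be checked from it. Of 14 macrophage markers on the array all 14 were tested and none was called by limma, with 3 at an unadjusted p under 0.05 and means between -0.80 and 0.91. They included Csf1r, the CSF-1 receptor (0.31), and Adgre1, which encodes F4/80 (-0.18). Of all 8951 probes tested 3.08% were called and 1426 had an unadjusted p under 0.05, so no call among 14 markers is near the share of all probes.

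Live E. coli raised more messages than it lowered in macrophages lacking MyD88. Of 8951 probes tested (7225 genes) 276 were called at a limma adjusted p under 0.05, which is 3.08% of those tested. Among them 204 (2.28%) were higher and 72 (0.804%) lower, and all 276 had 1 sign in every mouse measured. The call rests on the same values and makes 1 sign likely, so this is no further support. How many of all probes had 1 sign was not counted. The median called rise was 1.96 and the median called fall -1.40 on the log2 scale, against -0.05 over all genes tested, and 256 of the 276 were at least 2-fold. At an unadjusted p under 0.05 there were 1426 probes. With 1 mouse left out between 63 and 96 probes were called, and 47 of the 276 (44 higher) were called without each mouse in turn. In whole-culture RNA fewer cells of a type and less RNA per cell cannot be told apart.

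Cxcl10, an interferon-linked chemokine that draws T cells, rose most. Its probe (6076) had log2 ratios of 5.81, 6.52, 5.30 and 5.59 in mice 1 to 4. All 4 values were high, mouse 2 the highest, and the mean of 5.81 ± 0.24 (SE, n = 4 mice) is a 56.0-fold rise (limma adjusted p = 0.00298, at most 0.0417 without any 1 mouse). Acod1, the enzyme that makes itaconate, had 5.32, 5.28, 5.14 and 5.53, the closest agreement among the large rises, with a mean of 5.32 ± 0.15 (adjusted p = 0.00106).

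The other 14 of the 16 largest rises lay between 3.77 and 4.61. They comprised the guanylate-binding proteins Gbp2b (4.61) and Gbp3 (3.96), the neutrophil attractant Cxcl1 (4.60), the adhesion molecule Vcam1 (4.49), the antiviral protein Rsad2 (4.31), the fatty-acid receptor Gpr84 (4.25), the chemokine Ccl5 (4.24), the transcription factor Irf1 (4.23), the lectin Clec4e (4.21), the antiviral protein Ifit1 (4.07), the cholesterol hydroxylase Ch25h (4.06), the costimulatory ligand Icosl (3.97), Tnf (3.93) and the amino-acid oxidase Il4i1 (3.77). For 12 of the 16 the call held without each mouse in turn. It ended for Gbp2b, Rsad2, Ifit1 and Gbp3, always without mouse 4 and for some also without mouse 1 or 3, with highest adjusted p between 0.059 and 0.099. Gbp proteins are close in sequence, so probes of this family may share signal. The probe for Rpl39l, named as a ribosomal protein paralog, had a mean of 3.77 ± 0.37 (adjusted p = 0.0112) as well, and its call ended without mouse 2 or mouse 3 (adjusted p 0.0538 and 0.0543).

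The 12 largest falls lay between -3.08 and -1.80. Id1, a BMP-responsive inhibitor of helix-loop-helix transcription factors, fell to -3.19, -3.47, -2.79 and -2.86 in mice 1 to 4. The 4 mice lay close together, and the mean was -3.08 ± 0.18 (adjusted p = 0.00502). Lyl1, a haematopoietic transcription factor, was as even, at -2.05, -2.32, -2.23 and -2.00 (mean -2.15 ± 0.15, adjusted p = 0.00502). Both calls held without each mouse in turn.

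The other falls were those of the signal regulators Rgs2 (-2.50) and Rgs1 (-2.17), the transcription factors Hhex (-2.47), Jun (-1.99) and Bhlhe41 (-1.83), the BMP pseudoreceptor Bambi (-2.46), the receptors Cnr2 (-2.21), Gpr146 (-1.86) and Kdr (-1.80), and Ccsap, a centriole and spindle protein (-2.04). Their calls ended when at least 1 mouse was left out, 5 without mouse 1, 8 without mouse 2, 8 without mouse 3 and 9 without mouse 4, with highest adjusted p between 0.0574 and 0.184. Cnr2, a cannabinoid receptor, was the least even, with -2.12, -0.98, -2.53 and -3.22 in mice 1 to 4. Mouse 2 was the shallowest, its adjusted p was 0.0488, and centring the arrays (0.0509) or any of 5 other settings (up to 0.0869) ended the call. Keeping values at the floor ended those of Ccsap (0.128) and Gpr146 (0.0669), and testing probes with values in 2 or more mice ended those of Gpr146 (0.08), Jun (0.0549) and Rgs1 (0.05). Another probe for Hhex (5587) gave -2.85 with an adjusted p of 0.0918.

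**Figure D1:**
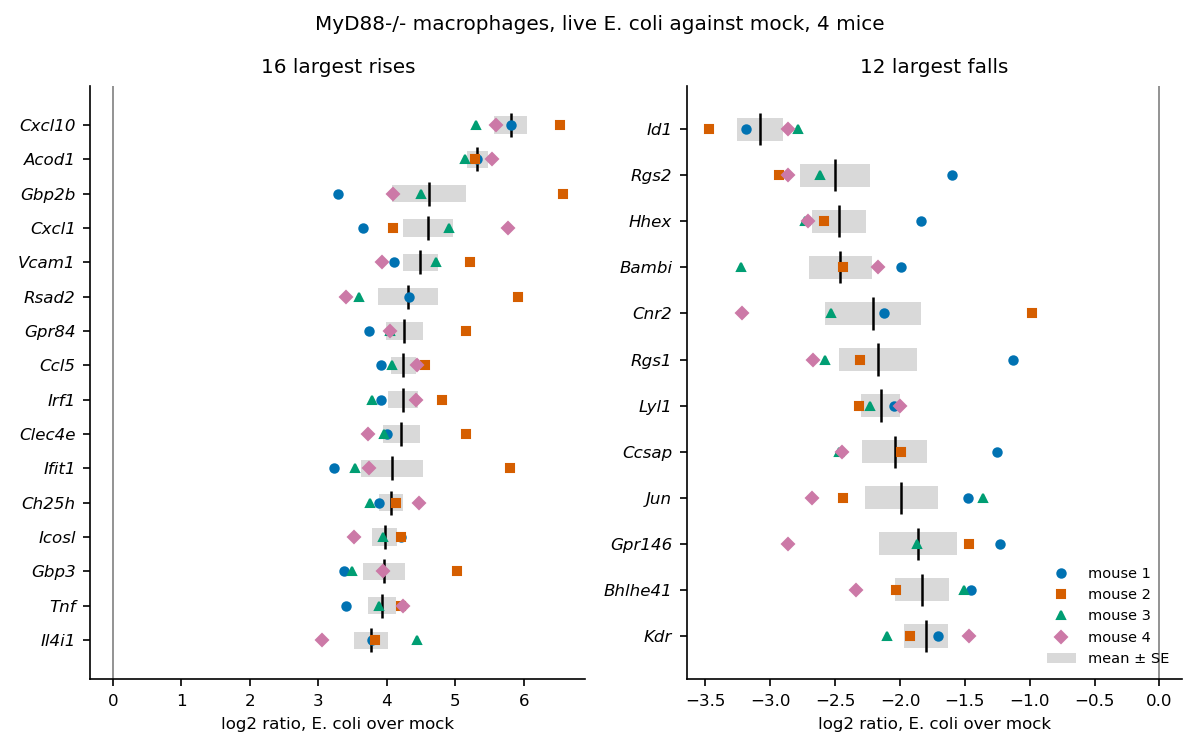
Log2 ratio of E. coli over mock (horizontal axis) for the 16 largest called rises and the 12 largest called falls in MyD88-/- macrophages, with 1 symbol per mouse, a line at the mean and a bar for the mean ± SE. Cxcl10 lies between 5.30 and 6.52 in the 4 mice and Id1 between -3.47 and -2.79, and mouse 2 is the highest for Gbp2b, Rsad2, Ifit1 and Gbp3.

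Among Toll-like receptors and their adaptors and kinases 4 of 19 genes tested were higher and none lower (median 0.23). For this and the list counts below, the shares over all probes were 2.28% called higher and 0.804% called lower. The lists were chosen with earlier results of these data known. Tlr2, which with Tlr1 or Tlr6 detects bacterial lipoproteins, had log2 ratios of 2.97, 3.77, 3.39 and 3.77. All 4 mice were high, with a mean of 3.47 ± 0.20 (adjusted p = 0.00492). Peli1, a ubiquitin ligase of the IRAK kinases, rose by 2.32 ± 0.16, and another probe (555) gave 2.51 (adjusted p = 0.024). The partner receptor Tlr1 rose by 1.28 (adjusted p = 0.0345), and Myd88 itself is the remaining call. Tlr3, whose only adaptor is TRIF, gave 0.23, Tlr6 0.54 and Tlr9 -0.63 (adjusted p = 0.687, 0.399 and 0.332). Tlr4 had values on 2 arrays and was not tested. The calls of Tlr2 and Peli1 held without each mouse, and that of Tlr1 ended without any 1 mouse (adjusted p between 0.109 and 0.139) and under 2 other settings (up to 0.0655).

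Interferon itself was not among the called genes in MyD88-/- cells. Ifnb1 had log2 ratios of 0.17, 0.28, 0.32 and 0.25. These lay close together and near 0, with a mean of 0.26 ± 0.14 (adjusted p = 0.433), and its 7 measured arrays ran from -0.30 to 0.90. Wild-type mice, at the same time after E. coli, had Ifnb1 ratios of 2.88, 1.21, 1.76 and 1.14, all above the MyD88-/- values. The difference, MyD88-/- minus wild-type, was -1.49 ± 0.41 and was not called (limma adjusted p = 0.117). In MyD88-/- mice Ifna2 gave -0.07 (adjusted p = 0.902). Of 16 genes of the interferon family, its receptors and signalling 2 were higher and 1 lower (median 0.46). Irf1 rose to 3.91, 4.81, 3.79 and 4.42 (mean 4.23 ± 0.22, adjusted p = 0.00402). Jak2, a kinase of cytokine receptors, rose to 2.45, 2.83, 2.81 and 2.46 (mean 2.64 ± 0.16, adjusted p = 0.00502). Irf8, which directs macrophage development, fell to a mean of -1.40 ± 0.23 (adjusted p = 0.0468). Its call ended without any 1 mouse (0.113 to 0.169) and under 4 other settings (up to 0.0863), whereas those of Irf1 and Jak2 held without each mouse.

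The other interferon regulatory factors were not called. Irf7 gave 0.71, 2.11, 0.76 and 0.63, with mouse 2 far above the others and a mean of 1.05 ± 0.29 (adjusted p = 0.171). Irf5 gave 0.68, Irf9 0.51, Irf2 0.26 and Irf3 0.04 (adjusted p = 0.0883, 0.274, 0.639 and 0.967). The receptor chains Ifnar1 and Ifnar2 gave 0.76 and 0.41 (adjusted p = 0.185 and 0.503). With the spread pooled over all 16 ratios, 7 genes of the list were called higher in place of 2, where 8.08% of all probes were called and 4.86% called higher.

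Of 31 antiviral interferon-stimulated genes tested 10 were higher and none lower, with a median of 0.76 against -0.05 over all genes. Of the 31 means 29 were above 0, against 3221 of all 7225 genes tested. Rsad2 had log2 ratios of 4.33, 5.91, 3.60 and 3.41 (mean 4.31 ± 0.44, adjusted p = 0.0123). Ifit1 had 3.23, 5.79, 3.53 and 3.74 (mean 4.07 ± 0.45, adjusted p = 0.0147). In both mouse 2 was well above the other 3 mice.

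The other 8 were Cmpk2, a nucleotide kinase beside Rsad2 in the genome (3.36), Ifi211 (2.97), Ifit3 (2.92), the dynamin-like Mx2 (2.53), the ubiquitin ligase Trim21 (2.01), the ADP-ribosyltransferase family members Parp14 (1.98) and Parp9 (1.30) and Slfn2 (1.74). Ifit2 gave 2.67 and Daxx 1.92 without passing (adjusted p = 0.0746 and 0.0637), Isg15 gave 0.20 and Mx1 0.15. Mx2 was the call that held without each mouse. The other 9 ended without at least 1 mouse (7 without mouse 1, 5 without mouse 2, 7 without mouse 3 and 8 without mouse 4, highest adjusted p between 0.0618 and 0.175), and other settings ended those of Trim21 (up to 0.0863), Parp9 (0.0613) and Parp14 (0.261 on dye-swapped arrays alone). With the pooled spread 16 were called higher.

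Interferon-inducible GTPases, which coat and disrupt the vacuoles of intracellular microbes, were higher as a group: all 7 tested of the 14 listed were called, with a median of 2.36. Gbp3 led at 3.38, 5.02, 3.49 and 3.94, followed by Tgtp1 (3.32), Gbp2 (3.12), Irgm2 (2.36), Ifi47 (2.34), Igtp (2.09) and Irgm1 (1.33). Mouse 2 had the highest value for 7 of the 7, and medians of the list were 1.93, 3.58, 2.01 and 2.41 in mice 1 to 4. Mouse 2 was also highest for 18 of 27 antiviral genes measured in every mouse (medians 0.96, 1.74, 1.09 and 0.83) and for 97 of 201 called rises, against 1843 of all 7346 probes. It was highest for 6 of 18 NF-kB genes and 1 of 10 cytokines, and what sets mouse 2 apart was not tested. Each of the 7 GTPase calls ended without at least 1 mouse, 7 without mouse 4, 5 without mouse 3 and 3 each without mouse 1 or 2 (highest adjusted p between 0.059 and 0.168), and other settings ended those of Ifi47 (up to 0.0748) and Irgm1 (up to 0.0508).

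**Figure D2:**
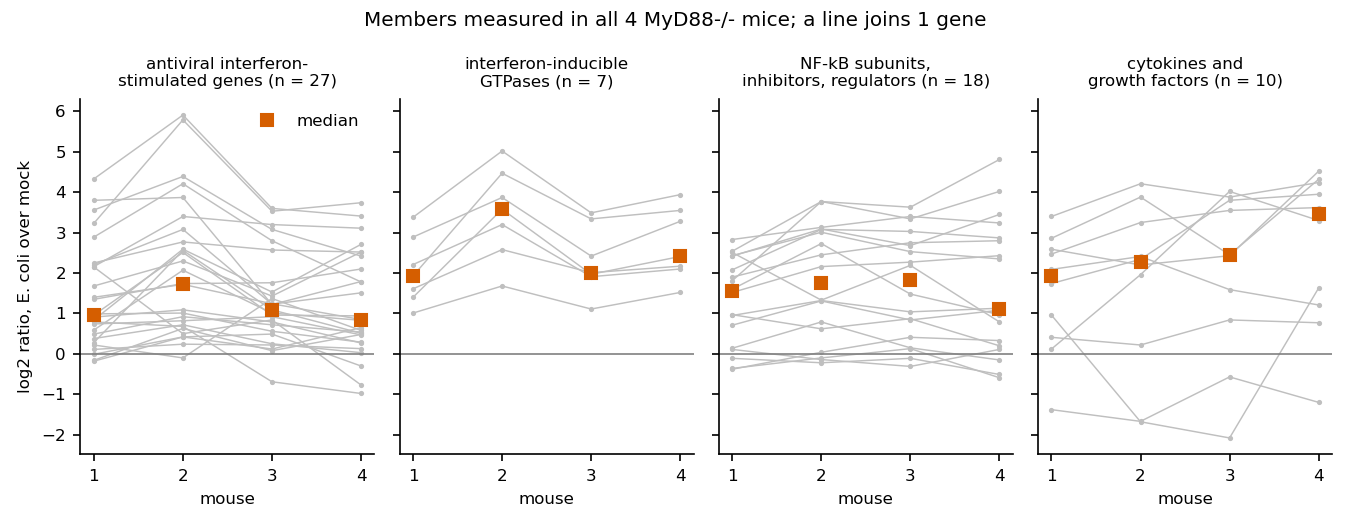
Log2 ratio of E. coli over mock (vertical axis) for members of 4 gene lists measured in all 4 MyD88-/- mice (horizontal axis, the numbers being names without order), with a line joining the values of 1 gene and a square at the median. The medians of the antiviral and GTPase lists are highest in mouse 2 (1.74 and 3.58), and that of the cytokines in mouse 4 (3.46).

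The promoters of the chemokine genes Cxcl10 and Cxcl1 and of the antiviral genes Ifit1 and Rsad2, all among the 16 largest rises, are shown because each holds the letters of 1 of 2 elements: the interferon-stimulated response element core GAAANNGAAA, to which interferon regulatory factors and the interferon-activated complex bind, and the kB letters GGGNNTTTCC, one form of the sites bound by NF-kB. Windows run from 250 bases before to 50 after the annotated start, 5′ to 3′ on the gene's strand, from RefSeq on GRCm38.p6, with matches on either strand in capitals. That of Cxcl10 spans chr5:92348840-92349139 on the minus strand, that of Ifit1 chr19:34640639-34640938 on the plus strand, that of Rsad2 chr12:26456403-26456702 on the minus strand and that of Cxcl1 chr5:90890995-90891294 on the plus strand.
Cxcl10: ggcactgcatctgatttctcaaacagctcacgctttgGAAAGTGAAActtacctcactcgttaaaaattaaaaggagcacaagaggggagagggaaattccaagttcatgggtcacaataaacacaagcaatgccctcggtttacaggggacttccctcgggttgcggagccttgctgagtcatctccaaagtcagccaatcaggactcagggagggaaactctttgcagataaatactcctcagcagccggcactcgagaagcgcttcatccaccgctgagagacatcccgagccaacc
Ifit1: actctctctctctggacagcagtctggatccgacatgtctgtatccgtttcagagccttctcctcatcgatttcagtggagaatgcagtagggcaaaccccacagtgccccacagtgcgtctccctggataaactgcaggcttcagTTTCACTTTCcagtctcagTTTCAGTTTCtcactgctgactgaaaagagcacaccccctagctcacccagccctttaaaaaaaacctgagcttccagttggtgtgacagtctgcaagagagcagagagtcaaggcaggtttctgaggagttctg
Rsad2: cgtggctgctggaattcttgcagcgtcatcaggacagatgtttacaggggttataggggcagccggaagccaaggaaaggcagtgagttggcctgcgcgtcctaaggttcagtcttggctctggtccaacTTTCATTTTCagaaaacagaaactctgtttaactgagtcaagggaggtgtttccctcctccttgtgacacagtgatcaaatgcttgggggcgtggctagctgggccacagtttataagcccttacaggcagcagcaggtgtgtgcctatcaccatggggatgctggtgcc
Cxcl1: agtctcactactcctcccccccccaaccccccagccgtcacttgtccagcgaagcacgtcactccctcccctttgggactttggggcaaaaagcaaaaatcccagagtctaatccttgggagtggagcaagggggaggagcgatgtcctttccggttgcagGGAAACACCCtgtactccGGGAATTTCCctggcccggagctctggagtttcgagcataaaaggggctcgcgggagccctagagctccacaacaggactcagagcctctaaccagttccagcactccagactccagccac

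The response element core starts 213 bases before the start of Cxcl10, 104 and 85 bases before that of Ifit1 and 120 bases before that of Rsad2. The kB letters start 89 and 71 bases before the start of Cxcl1. Both patterns were searched on both strands and do not overlap in these windows. Of the largest rises named above, 14 had a promoter window, of which 5 held the response element core and 1 the kB letters. The windows of Acod1, Irf1, Tnf, Ch25h, Clec4e, Gpr84, Icosl and Il4i1 held neither. The promoters shown were thus picked for their matches and do not stand for the largest rises as a set. The response element core was in 3.44% of all 32851 promoter windows of the reference and in 228 of 5802 tested genes with a window (3.93%). It was in 20 of 153 genes called higher (13.1%) and in 1 of 49 called lower (2.04%). The kB letters were in 1.63% of all windows, in 111 of 5802 tested genes (1.91%), in 11 of 153 genes called higher (7.19%) and in 1 of 49 called lower (2.04%). These shares are descriptions, and a match is not a bound site.

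NF-kB subunits, inhibitors and regulators rose in 9 of 18 genes tested, with none lower and a median of 1.70, where 2.28% of all probes were called higher. The adaptor Traf1 had log2 ratios of 2.54, 3.77, 3.63 and 4.81 (mean 3.68 ± 0.37, adjusted p = 0.0113). Relb, a subunit of the alternative pathway, had 2.42, 3.09, 2.68 and 3.45 (mean 2.91 ± 0.22, adjusted p = 0.00586). All 4 mice were high for both, and mouse 1 was the lowest. Its partner Nfkb2 rose by 2.77. Of the inhibitors, Tnfaip3 (A20) had 1.81, 3.77, 3.34 and 4.02 (mean 3.23 ± 0.39, adjusted p = 0.0186), its partner Tnip1 rose by 2.58, and the IkB proteins Nfkbie and Nfkbib rose by 3.15 and 2.10.

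Bcl3, an IkB-like coactivator, rose by 2.48 and Bcl10, a signalling scaffold, by 1.11. Rela gave 0.98 (adjusted p = 0.0502), and the probes for Rel gave -0.24 (1595) and 1.18 (12463) without a call (adjusted p = 0.504 and 0.227). Nfkbia had values on 3 arrays and was not tested. The calls of Relb, Nfkbie and Tnip1 held without each mouse, the other 6 ended without mouse 4, as did 1 of them without mouse 1 and 4 each without mouse 2 or 3 (highest adjusted p between 0.0557 and 0.137), and that of Tnfaip3 ended on unswapped arrays alone (0.0917).

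The cytokine genes that could be tested were among the highest as well. Of 27 on the list 24 were on the array and 11 had the values needed for a test. Of these 6 were higher and none lower (median 2.35). Whether having values depended on the stimulus was not tested, so these figures describe the tested members alone. Tnf had log2 ratios of 3.40, 4.21, 3.88 and 4.24, all 4 mice high, with a mean of 3.93 ± 0.20 (15.3-fold, adjusted p = 0.00402). Il15, which supports NK cells, had 2.47, 3.25, 3.55 and 3.62 (mean 3.22 ± 0.24, adjusted p = 0.00586), and Csf1 rose by 3.38.

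The interleukin 1 genes varied more between mice. Il1b (10766) had 1.74, 2.34, 3.80 and 3.95 (mean 2.96 ± 0.43, adjusted p = 0.031) and Il1a 2.59, 2.20, 2.43 and 4.52 (mean 2.94 ± 0.42, adjusted p = 0.0304), with mouse 4 the highest for both. Another probe for Il1b (11722) gave -0.18 (adjusted p = 0.638). The receptor antagonist Il1rn rose by 1.83. Il10, which restrains inflammation, had 0.12, 1.96, 4.02 and 3.30. Mouse 1 was near 0 and mouse 3 high, and the mean of 2.35 ± 0.65 was not called (adjusted p = 0.168). The calls of Tnf and Il15 held without each mouse, while the other 4 ended without mouse 1 or 2, and 3 each without mouse 3 or 4 (highest adjusted p between 0.0658 and 0.129), and those of Il1a and Il1b under 2 other settings (up to 0.0556 and 0.0566). Il6 had values on 2 arrays and was not tested.

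Chemokine genes divided. Of 18 tested 7 were higher and none lower (median 0.99). Beside Cxcl10, Cxcl1 and Ccl5 these were Ccl4 (2.56), Cxcl2 (2.29), Ccl9 (1.49) and Cxcl16 (0.96). Cxcl1 had 3.65, 4.09, 4.90 and 5.77 (mean 4.60 ± 0.37, adjusted p = 0.00728) and Ccl5 3.91, 4.55, 4.08 and 4.44 (mean 4.24 ± 0.18, adjusted p = 0.00298). The 11 not called included Ccl17 (0.40), Ccl7 (-0.02), Ccl2 (0.82) and Ccl3 (1.03), with adjusted p of 0.474, 0.976, 0.117 and 0.154. These are named for their genotype differences below and do not stand for a class of chemokines. Calls of Ccl4, Ccl9 and Cxcl16 ended without mouse 2 or 4, and in part without mouse 1 or 3 (highest adjusted p between 0.0655 and 0.167), and that of Cxcl16 under 2 other settings (up to 0.068).

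Immediate early and MAPK feedback genes moved in both directions, with 5 of 24 tested higher and 3 lower (median 0.24). The GTP-binding protein Gem (3.06), the zinc-finger factor Egr2 (2.98), the stress sensor Gadd45b (2.69), Maff (2.01) and Junb (1.30) rose. Jun fell to -1.48, -2.44, -1.36 and -2.68 (mean -1.99 ± 0.28, adjusted p = 0.0296), Gadd45a fell by 1.63 and Klf4 by 1.37. Fos gave -1.28 (adjusted p = 0.135) and Egr1 0.15 (adjusted p = 0.766). Each of the 8 calls ended without at least 1 mouse, 6 without mouse 1, 7 without mouse 2, 6 without mouse 3 and 8 without mouse 4 (highest adjusted p between 0.059 and 0.179), and other settings ended those of Gem (0.0538), Jun (0.0549), Junb (0.0933), Klf4 (up to 0.105) and Maff (up to 0.08).

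Of 28 inflammatory and antimicrobial effectors 7 were higher and none lower (median 0.45). After Acod1, Clec4e had log2 ratios of 4.00, 5.15, 3.96 and 3.72 (mean 4.21 ± 0.27, adjusted p = 0.00502) and Ch25h 3.88, 4.13, 3.75 and 4.47 (mean 4.06 ± 0.18, adjusted p = 0.00303). Il4i1 had 3.78, 3.82, 4.44 and 3.06. All mice were high for these genes. The acute-phase protein Saa3 rose by 2.87, the mitochondrial superoxide dismutase Sod2 by 2.71 and Gch1, which makes the cofactor of nitric oxide synthase, by 1.31. The call of Gch1 ended without any 1 mouse (adjusted p between 0.0736 and 0.122), and the other 6 held. Nos2 gave 0.45 (adjusted p = 0.278).

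Surface molecules for adhesion and for contact with T cells rose in part. Of 20 adhesion and proteolysis genes 6 were higher (median 0.56): Vcam1, with 4.11, 5.21, 4.72 and 3.93, the collagenase Mmp13 (2.50), the integrins Itgav (2.02) and Itga5 (1.79), the proteoglycan Sdc4 (1.83) and Cd44 (0.94). Of 26 costimulation and antigen presentation genes 4 were higher (median 0.35). These were Icosl, with 4.21, 4.21, 3.95 and 3.52, Tnfsf4, with 1.73, 5.57, 4.07 and 3.57, Cd83 (2.98) and Ciita, the regulator of MHC class II genes (1.48). None of the 2 lists was called lower. Tnfsf4 was uneven, mouse 1 low and mouse 2 high (mean 3.74 ± 0.61, adjusted p = 0.0443). The calls of Vcam1, Sdc4, Icosl and Cd83 held without each mouse. Those of the other 6 ended without any 1 of mice 2, 3 and 4, and those of 4 without mouse 1 (highest adjusted p between 0.0784 and 0.184), and other settings ended those of Cd44 (up to 0.0901), Itgav (up to 0.0612), Mmp13 (up to 0.051), Tnfsf4 (up to 0.131) and Ciita (0.0849). With the pooled spread 9 costimulation and antigen presentation genes were called higher.

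Of 19 G-protein-coupled receptors and their regulators 3 were higher and 4 lower (median 0.10). Gpr84 had 3.74, 5.16, 4.05 and 4.05, the chemerin-binding receptor Ccrl2 rose by 2.96 and the prostaglandin receptor Ptger4 by 2.58. The 4 lower genes were Rgs2, Cnr2, Rgs1 and Gpr146. Rgs2 had -1.60, -2.93, -2.62 and -2.86 (mean -2.50 ± 0.27, adjusted p = 0.0128), with mouse 1 the shallowest. The calls of Ccrl2 and Ptger4 ended without at least 1 mouse (adjusted p up to 0.0736 and 0.131).

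Cell death and survival genes rose in 8 of 23 tested and fell in 1 (median 0.26). The death receptor Fas had 1.62, 3.81, 4.06 and 3.78, with mouse 1 well below the other 3 mice (mean 3.32 ± 0.44, adjusted p = 0.0253). Genes that restrain apoptosis rose beside genes that promote it: Bcl2a1d (2.87), Bcl2a1a (2.01) and the caspase-8 inhibitor Cflar (2.03) among the former, and Bcl2l11 (2.24) among the latter. The TNF receptor Tnfrsf1b rose by 1.83, the inflammatory caspase Casp4 by 1.54 and Phlda1 by 1.09. Bcl2l1, which encodes Bcl-x, fell by 1.52. The Bcl2a1 genes are near-identical copies, so their probes cannot be assigned to 1 copy. The call of Cflar held without each mouse and the other 8 ended without at least 1 (6 without mouse 1, 6 without mouse 2, 8 without mouse 3 and 6 without mouse 4, highest adjusted p between 0.0501 and 0.164), and other settings ended those of Bcl2a1d (up to 0.0549), Casp4 (up to 0.0764) and Phlda1 (up to 0.0573).

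Haematopoietic and macrophage transcription factors had the lowest median of the 24 pathway lists, -0.39 over 28 genes, and 5 were lower and 3 higher. Beside Id1, Hhex and Lyl1, Id2 fell to -1.40, -2.21, -1.78 and -1.50 (mean -1.72 ± 0.19, adjusted p = 0.0144) and Id3 to -0.84, -1.09, -1.09 and -1.11 (mean -1.03 ± 0.14, adjusted p = 0.0276). All 3 Id genes were thus below 0 in every mouse. The related factors Tfec (2.42) and Mitf (1.75) rose, as did Ets2 (1.73). Pparg had -1.52, -3.24, -2.92 and -1.10 and was not called (mean -2.19 ± 0.41, adjusted p = 0.0642). The calls of Id1, Lyl1 and Tfec held without each mouse and the other 5 ended without at least 1 mouse (4 without each of mice 1, 2, 3 and 4, highest adjusted p between 0.059 and 0.168), and other settings ended those of Ets2 (0.0808), Id3 (up to 0.069) and Mitf (up to 0.138). With the pooled spread 10 were called lower and 5 higher, where 3.22% of all probes were called lower.

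The remaining lists held few calls. The cell-cycle inhibitor Cdkn1a rose by 2.58 at probe 13203 (adjusted p = 0.00547) and gave 0.39 at probe 3569 (adjusted p = 0.325). Tsc22d3, a glucocorticoid-induced gene, fell to -1.59, -2.08, -1.55 and -1.97 (mean -1.80 ± 0.17, adjusted p = 0.00974), and the kinase Sgk1 rose by 0.92 (adjusted p = 0.0463). Noct, the circadian protein nocturnin, rose by 1.69, with 1.95 at another probe (3899). Slc7a11, the cystine carrier (1.30), Txnrd1, thioredoxin reductase (1.21), and the hexokinase Hk2 (1.53) rose, and the lectin Clec4a2 fell by 0.94 (adjusted p = 0.036) with -0.42 at probe 10804 (adjusted p = 0.438). Txnip, an inhibitor of thioredoxin, had -0.52, -0.16, -0.77 and -0.15 and was not called (mean -0.40 ± 0.17, adjusted p = 0.344).

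Apart from that of Cdkn1a, all of these calls ended without at least 1 mouse, with adjusted p of up to 0.0618 for Tsc22d3, 0.212 for Sgk1, 0.0784 for Noct, 0.124 for Slc7a11, 0.129 for Txnrd1, 0.129 for Hk2 and 0.194 for Clec4a2. On dye-swapped arrays alone the adjusted p was 0.237 for Slc7a11, 0.295 for Clec4a2 and 0.0823 for Sgk1, and on unswapped arrays alone 0.0902 for Noct and 0.0706 for Hk2. With the pooled spread 4 of 14 genes of mRNA decay, 4 of 20 phagocytic, scavenger and Fc receptors and 3 of 12 of glycolysis and hypoxia were called higher, in place of 1, 0 and 1, and 2, 2 and 0 lower, in place of 0, 1 and 0.

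No gene of 5 lists was called by limma: SOCS and other cytokine signalling inhibitors (0 of 7, with 4 at an unadjusted p under 0.05), sterol and lipid metabolism (0 of 15, 5 unadjusted), lysosome (0 of 16, 2 unadjusted), cell cycle and DNA replication (0 of 26, 3 unadjusted) and ribosomal proteins (0 of 31, 2 unadjusted). Their medians were 0.26, -0.16, -0.26, -0.12 and -0.06. Means above 0 numbered 5, 7, 1, 7 and 10 in these lists, against 3221 of all 7225 genes tested. Over all 8951 probes 3.08% were called and 1426 had an unadjusted p under 0.05. No call in a list of this size is near the share of all probes. Socs3 ran from -2.11 to 0.53 and Scd1, measured in 3 mice, from -3.91 to -0.29. Such spreads leave sizeable changes undetectable with 4 mice.

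**Figure D3:**
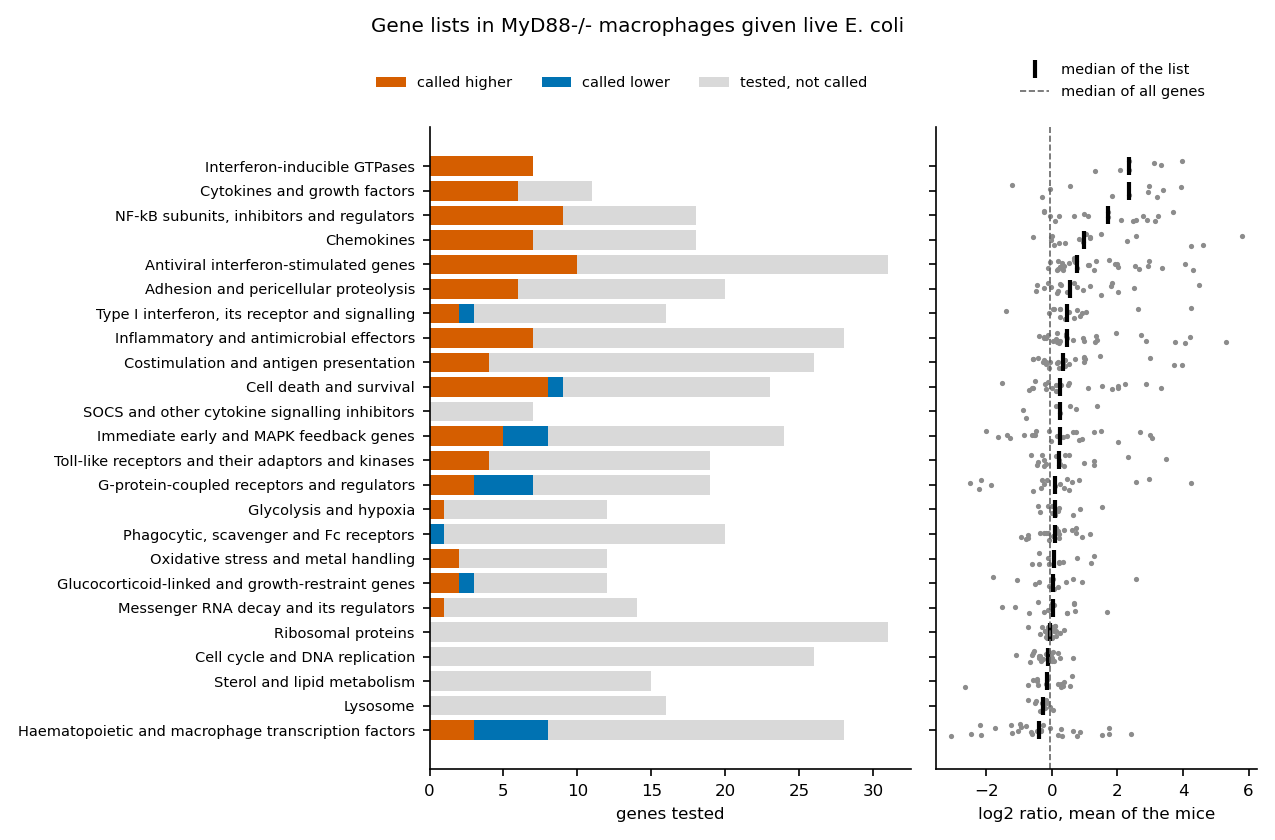
Number of genes tested in each of 24 lists, split into called higher, called lower and not called (left), and the mean log2 ratio of each gene with the list's median as a bar (right, dashed line at the median of all genes, -0.05), in MyD88-/- macrophages given E. coli. All 7 interferon-inducible GTPases are called higher, and none of 31 ribosomal proteins is called, where 3.08% of all probes are called.

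Markers of other cell types could be tested in part, those of T cells least. Of 12 T cell markers on the array 2 were tested, and Cd3d, Cd3e and Thy1 had no value on any of the 8 arrays. Cd28, a T cell costimulatory receptor, fell to a mean of -1.25 ± 0.16 (adjusted p = 0.0228). Of 8 erythroid markers 7 were tested and Car2, carbonic anhydrase, which haematopoietic and other cells also use, rose by 1.96 ± 0.27 (adjusted p = 0.046, measured in 3 mice). Both genes were named after their values were seen, and both calls ended without any 1 mouse measured (adjusted p up to 0.112 and 0.213). Of markers on the array 8 of 13 were tested for B cells, 8 of 13 for neutrophils, 5 of 6 for dendritic cells and 9 of 14 for stromal cells. Limma called none of them, with 3, 0, 2 and 0 at an unadjusted p under 0.05, where 3.08% of all probes were called. What part these cell types had in the responses above was not tested.

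The same bacteria given to wild-type macrophages show which of these ratios differed with the genotype. Of 7887 probes tested for MyD88-/- minus wild-type 50 were called (0.634%), 37 lower in MyD88-/- cells (0.469%) and 13 higher (0.165%), and at an unadjusted p under 0.05 there were 998. All 50 had mouse values that did not overlap between the genotypes. A call on the same values makes that likely, so it is no further support, and the share over all probes was not counted. Of the 16 largest rises 15 could be tested and 1, Tnf, was called, with differences from -2.25 to 1.68 and a median of -0.38. None of the 12 largest falls was called in limma's fit (differences -1.66 to 1.02, median -0.12), and all of these genes were chosen on the MyD88-/- values that enter the difference.

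No listed antiviral gene, GTPase or NF-kB gene was called between the genotypes, where 0.634% of all probes were called. Cxcl10 had 6.84, 6.64, 6.12 and 5.75 in wild-type mice, which overlaps the MyD88-/- values, with a difference of -0.53 ± 0.39 (adjusted p = 0.612). For Acod1 the difference was -0.17 ± 0.28, for Irf1 0.28 ± 0.46, for Ccl5 -0.80 ± 0.31 and for Ifit1 0.75 ± 0.84 (adjusted p = 0.856, 0.861, 0.287 and 0.77). Limma called 0 of 27 antiviral genes (9 at an unadjusted p under 0.05, median difference 0.35), 0 of 7 GTPases (1 unadjusted, median 0.80) and 0 of 18 NF-kB genes (2 unadjusted, median -0.06), where the median of all genes was 0.02. Of all 7887 probes 998 had an unadjusted p under 0.05. At the share called over all probes, lists of this size would hold few calls or none. A p that misses the threshold does not show equal responses: Rsad2 was 1.68 ± 0.68 and Vcam1 1.65 ± 0.41 higher in MyD88-/- cells (adjusted p = 0.308 and 0.0894).

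Several cytokines and chemokines had lower ratios in cells without MyD88. Ccl17 had 0.05, -0.14, 0.86 and 0.82 in MyD88-/- mice against 7.44, 5.99, 5.89 and 5.48 in wild-type mice. The groups were far apart, by -5.80 ± 0.52 (adjusted p = 2.06e-05). Tnf had 6.34, 6.78, 5.84 and 5.76 in wild-type mice, above all MyD88-/- values, by -2.25 ± 0.30 in the difference (adjusted p = 0.00136). Of 17 chemokines 6 were lower in MyD88-/- cells (median -0.53), namely Ccl17, Ccl3 (-4.37), Cxcl2 (-3.39), Ccl2 (-3.28), Ccl7 (-3.05) and Ccl4 (-2.89). Of 10 cytokines 4 were lower (median -1.89), namely Il1b (-4.90), Il1a (-3.72), Tnf and Il1rn (-1.53). The other probe for Il1b (11722) gave a difference of 0.18 (adjusted p = 0.711).

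Cxcl1, whose ratio was 4.60 in MyD88-/- cells, was 2.12 ± 0.62 lower without a call (adjusted p = 0.151). The probe for Rpl39l (-4.35), Noct (-2.82 and -2.45 at its 2 probes), Socs1 (-2.52), Mmp13 (-2.48), Saa3 (-2.21), Id2 (-1.27) and Junb (-1.06) were lower too. Further list members called lower, named after their values were seen, were Cebpd (-3.00), Myc (-2.86), Cfb (-2.17), Plaur (-2.07) and Plk2 (-2.01). Cebpd, a C/EBP family transcription factor, had -0.98, -1.66, -0.70 and -1.53 in MyD88-/- mice and 2.24, 1.96, 1.77 and 1.17 in wild-type mice. Its groups lay on opposite sides of 0.

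The 8 largest called differences toward a higher ratio in MyD88-/- cells were of genes whose wild-type ratios were below 0 in every mouse measured. Txnip had -3.24, -2.22, -2.64 and -4.21 in wild-type mice, and its 2 probes differed by 2.68 ± 0.40 (adjusted p = 0.00391) and 2.95. Klf10, a TGF-beta-inducible factor, differed by 1.82 ± 0.21 (adjusted p = 0.000342), with all wild-type values at or below -1.25 and all MyD88-/- values at or above 0.13. The coactivator Ppargc1a (3.18), the lamin Lmnb1 (1.95), the ribonuclease Rnase6 (1.88), the cohesin acetyltransferase Esco2 (1.53), the mitochondrial carrier Slc25a36 (1.52) and Sgk1 (1.44) were the others.

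For 9 of the 25 genes named by rule the call ended without at least 1 of the 8 mice. The highest adjusted p was 0.0724 for Ccl4 and 0.0817 for Il1b, both without wild-type mouse 1, 0.0956 for Il1rn without MyD88-/- mouse 3 and 0.0777 for Mmp13, 0.147 for Socs1 and 0.119 for Slc25a36 without wild-type mouse 1. It was 0.0965 for Lmnb1 and 0.0969 for Rnase6 without MyD88-/- mouse 1 and 0.0931 for Ppargc1a without wild-type mouse 4, and each of the 9 also ended without at least 1 other mouse. Of the genes added later, Cfb (0.0851 without wild-type mouse 1) and Myc (0.127 without MyD88-/- mouse 2) ended too. Other settings ended calls among the 25 as well, on unswapped arrays alone 17 of them (adjusted p between 0.0505 and 0.357, with 21 probes called in all) and in the fit of the 8 ratios compared 9 (between 0.0834 and 0.209, with 23 in all). Scaling the arrays ended 6 (up to 0.149), dye-swapped arrays alone 3 (up to 0.37), keeping floor values 2 and the filter on 2 or more mice 2 (up to 0.0715), and Socs1 also ended under centring and robust eBayes.

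**Figure D4:**
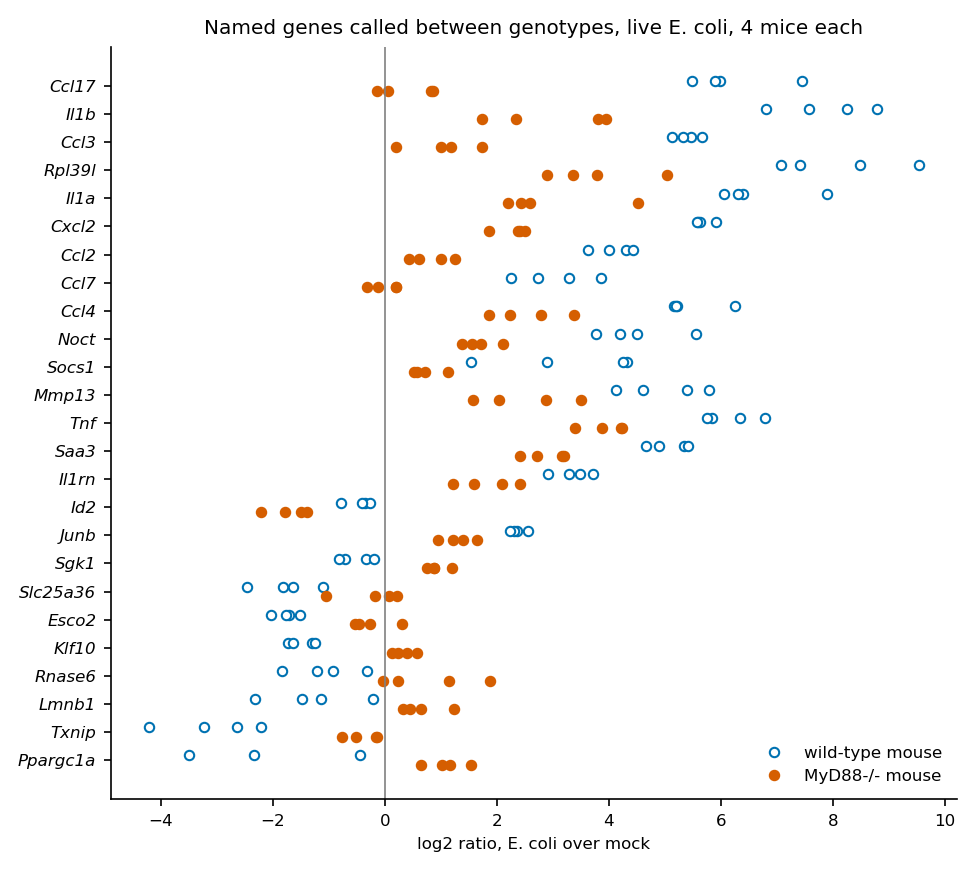
Log2 ratio of E. coli over mock (horizontal axis) in each of 4 wild-type mice (open circles) and 4 MyD88-/- mice (filled circles) for the named genes called between the genotypes. Ccl17 lies between -0.14 and 0.86 in MyD88-/- mice and between 5.48 and 7.44 in wild-type mice, and Txnip lies between -4.21 and -2.22 in wild-type mice.

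Purified LPS was given to MyD88-/- cells of mice that the source labels also number 1 to 4, read here as the same animals, and the comparison asks whether the responses to live bacteria and to LPS differed when MyD88 was missing. By limma 0 of 8086 probes were called (0.0%), 207 had an unadjusted p under 0.05, and the median standard error of a difference was 0.313. At that unadjusted threshold 404 would be expected by chance, and this fit takes no account of the mouse number. With the mouse as a block 0 were called as well, with 373 at an unadjusted p under 0.05. The labels describe the mock cells of both stimuli in the same words for each mouse, so the 2 responses may share a reference.

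Cxcl10 had 5.01, 4.55, 5.46 and 6.37 with LPS, overlapping its E. coli values, a difference of 0.46 ± 0.39. Among the 16 largest rises differences ran from -0.16 to 1.91 (median 0.31) and among the 12 largest falls from -0.55 to 1.97 (median -0.01). These genes were chosen on the E. coli values that enter the difference. Of them 1 rise and 2 falls had a difference beyond 2 standard errors. They are given next for that reason and do not stand for the set. The share of all probes without overlap between the stimuli was not counted. Il4i1 had 1.75, 1.78 and 2.07 with LPS (3 mice) and at least 3.06 with E. coli in every mouse, so the groups did not overlap, with a difference of 1.91 ± 0.68 (adjusted p = 1.0). Cnr2 had -2.04, -3.85, -4.34 and -6.49 with LPS (difference 1.97 ± 0.86), and Gpr146 -3.04, -2.24, -3.46 and -2.54 (difference 0.97 ± 0.41).

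**Figure D5:**
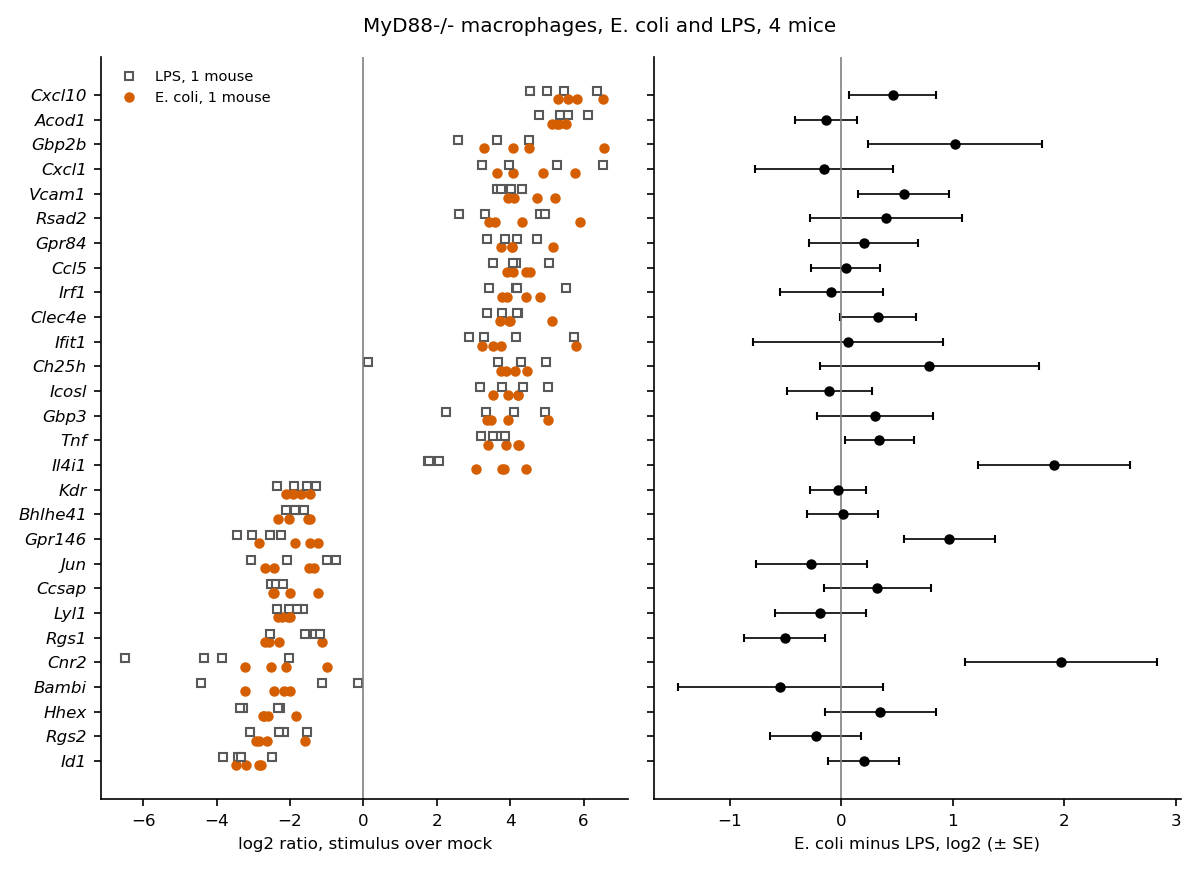
Log2 ratios of stimulus over mock in MyD88-/- macrophages (left) for E. coli (filled circles) and LPS (open squares), with 1 symbol per mouse, and the difference E. coli minus LPS ± SE (right), for the 16 largest rises and 12 largest falls with E. coli. No difference is called, and that of Il4i1 is 1.91 and that of Cnr2 1.97.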

How the data were processed

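RNA of stimulated and mock macrophages was compared on 2-colour spotted arrays. The authors deposited log2 ratios, and per the labels' protocols the slides were scanned with GenePix and handled in BASE and GeneSpring. Background correction, normalization and spot filters are not given in the sources used here. Values at log2(0.01), that is -6.64, were 1.27% of the values and were set to missing as a floor, and the arrays of a mouse were averaged. Probes with values in at least 3 of 4 mice were tested with limma 3.58.1 in R 4.3.3 (lmFit, eBayes, Benjamini-Hochberg adjustment, threshold 0.05). The response was fitted on its 4 mouse-level ratios, and both differences on all 16. The source labels number the MyD88-/- mice 1 to 4 for both E. coli and LPS, which was read as the same animals. The deviations of same-numbered mice could not decide this. Their r, from -0.031 to 0.15, lay within the range for unlike numbers, from -0.265 to 0.2. Of 13872 probes 11480 had 1 gene symbol, 50 several and 2342 none, and 11437 matched a current RefSeq gene. A gene with several probes is shown by the one with most values. Named genes are the 16 largest called rises, the 12 largest called falls, the 8 largest called genotype differences each way, called list members, up to 4 further members per list of largest size and a fixed set of pathway genes. The members and lists were chosen with earlier results of these data known. The alternatives tried were centring, scaling, the floor, each dye orientation, stricter and looser filters, robust or pooled spread, a dye term, the mouse block and leaving out each mouse.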

Additional observations from a re-analysis of the deposited data

Results flagged for a closer look

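In 7 of 163 sets of 4 mouse values tested, 1 mouse lay far from the other 3 by Dixon's criterion, and chance flags about 1 in 20 groups. Mouse 1 was the shallowest for Hhex (-1.84, against a median of -2.71 in the others) and Id3 (-0.84 against -1.09) and the lowest for Fas (1.62 against 3.81). Mouse 2 was the highest for Irf7 (2.11 against 0.71). Mouse 4 was the highest for Il1a (4.52 against 2.43) and Slc7a11 (1.81 against 1.15) and the lowest for Ets2 (1.34 against 1.86).

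The response to E. coli differed between the genotypes, by limma's test of the difference, for the genes named in that comparison. The log2 ratio was lower in MyD88-/- cells for Ccl17 (-5.80), Il1b (-4.90), Ccl3 (-4.37), Rpl39l (-4.35), Il1a (-3.72), Cxcl2 (-3.39), Ccl2 (-3.28), Ccl7 (-3.05), Ccl4 (-2.89), Noct (-2.82), Socs1 (-2.52), Mmp13 (-2.48), Tnf (-2.25), Saa3 (-2.21), Il1rn (-1.53), Id2 (-1.27) and Junb (-1.06). It was higher for Ppargc1a (3.18), Txnip (2.68), Lmnb1 (1.95), Rnase6 (1.88), Klf10 (1.82), Esco2 (1.53), Slc25a36 (1.52) and Sgk1 (1.44).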

How the results depend on the processing

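The count of probes called for the response was 276. It rose to 434 with values required in all 4 mice, to 595 with values on both arrays of a mouse, to 573 with a dye term and the mouse as a random block, and to 723 or 789 with the spread pooled over 16 ratios, on the same probes or on those measured in every group. It fell to 174 with values in 2 or more mice, and lay between 63 and 96 with 1 mouse left out. Of the 109 named called genes, 37 to 56 were still called with 1 mouse left out. The genotype difference, with 50 calls, gave 105 with values on both arrays, 168 with a dye term, 23 in the fit of its 8 ratios and 21 on unswapped arrays alone, and between 35 and 47 with 1 mouse left out. For E. coli minus LPS no setting gave a call, the replicate block included (0 calls, 373 at an unadjusted p under 0.05 against 207 without it, by limma, and 404 expected by chance), and the count stayed at 0 with each mouse left out. No called value of a named gene changed sign under these settings. The causes of these shifts were not tested. Few mice and unequal dye orientations limit the precision, and ratios give no signal over background.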
